A study of Mus musculus with 9 samples.

Results

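The genes described here are 10 transcripts of the secretory cells that line the airways, taken by symbol from the deposited table: Scgb1a1, Scgb3a1, Scgb3a2, Cyp2f2, Hp, Muc5b, Gabrp, Bpifa1, Bpifb1 and Pigr. The table held 16165 genes, and all 10 were among them and among the 13849 that were tested. RNA sequencing was done on total lung RNA of 9 mice, 1 library per mouse and 3 mice per group. Control mice received vehicle, and their labels name no doxycycline (Dox). Mice of the TGFalpha genotype (TGFα, transforming growth factor alpha) were on Dox for 6 weeks and received either vehicle or the antifibrotic drug pirfenidone during the last 3 weeks. No control mice received pirfenidone, and Dox and genotype cannot be told apart in any comparison with control mice. Neither the age, sex and strain of the mice nor the promoter that drives the transgene is given in the labels. The series title names pirfenidone, fibroblast activation and fibrotic lung disease as its subject.

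Club cells are secretory cells of the conducting airways that release small secretoglobins, carry cytochrome P450 enzymes that metabolise inhaled compounds, and can renew themselves and ciliated cells. Goblet cells and submucosal glands add gel-forming mucins, antimicrobial BPI-fold proteins and the receptor that carries IgA into the airway lumen. Many inducible mouse lung transgenes are switched on from a promoter of Scgb1a1 (also called CCSP), a general background fact that the labels neither state nor deny for these mice. In whole-lung RNA, fewer cells of a type and less RNA per cell cannot be told apart, and this holds for every difference below.

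Promoters are shown because they give the start-site context of Cyp2f2, a club cell enzyme, and of Scgb3a1, Bpifb1 and Bpifa1, which were high together in some libraries. RefSeq promoter windows on build GRCm38.p6 were used for 6 of the 10 genes. Scgb3a2 was left out of this step by choice, so its absence does not show that RefSeq lacks its window. Each window is given 5′ to 3′ on the strand of its gene, as the 250 bases before the start. Capitals mark matches, on either strand, to the NKX2-1 core CACTTG, the FOXA core TGTTTNC or the TATA box TATAAA. The C/EBP core TTGCNNAA was also searched. The windows lie at chr7:27119705-27119954 (Cyp2f2), chr11:49663345-49663594 (Scgb3a1), chr2:154190568-154190817 (Bpifb1) and chr2:154142630-154142879 (Bpifa1), all on the forward strand.
Cyp2f2: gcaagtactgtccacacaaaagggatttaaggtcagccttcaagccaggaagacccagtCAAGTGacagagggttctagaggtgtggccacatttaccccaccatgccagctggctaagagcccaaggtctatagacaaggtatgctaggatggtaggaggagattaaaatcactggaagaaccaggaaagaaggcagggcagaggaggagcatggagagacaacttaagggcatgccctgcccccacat
Scgb3a1: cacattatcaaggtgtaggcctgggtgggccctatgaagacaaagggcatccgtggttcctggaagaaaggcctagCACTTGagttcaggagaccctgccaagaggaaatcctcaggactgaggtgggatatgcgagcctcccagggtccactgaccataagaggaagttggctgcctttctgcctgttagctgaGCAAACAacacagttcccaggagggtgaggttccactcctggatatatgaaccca
Bpifb1: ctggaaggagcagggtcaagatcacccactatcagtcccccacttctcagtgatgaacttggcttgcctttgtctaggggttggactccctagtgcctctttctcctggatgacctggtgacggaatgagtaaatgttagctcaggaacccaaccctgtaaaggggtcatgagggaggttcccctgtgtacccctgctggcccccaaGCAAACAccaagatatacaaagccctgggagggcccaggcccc
Bpifa1: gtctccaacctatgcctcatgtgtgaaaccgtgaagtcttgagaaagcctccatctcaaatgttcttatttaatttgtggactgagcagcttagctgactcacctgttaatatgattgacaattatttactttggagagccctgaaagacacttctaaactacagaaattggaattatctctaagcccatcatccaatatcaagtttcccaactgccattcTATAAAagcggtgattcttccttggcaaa
Cyp2f2 held an NKX2-1 core at -191 from the start, and Scgb3a1 held one at -174 together with a FOXA core at -55. Bpifb1 held a FOXA core at -43, and its chromosome 2 neighbour Bpifa1 held a TATA box at -29. The windows of Gabrp and Pigr held none of the 4 motifs. Among 32851 windows of the same length, 11.6% held the NKX2-1 core, 17.8% the FOXA core, 12.4% the TATA box and 9.56% the C/EBP core. A match describes letters in a window and is not a binding site or a cause of any level.

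Several libraries stood apart. Library totals ran from 11428709 to 18874158 reads. Control library 3 had 934 RPKM of Lcn2, a siderophore-binding defence protein, against 37.9 and 43.9 in the other control libraries, and 8290 RPKM of Chil3, a macrophage chitinase-like protein, against 287 and 361. The summed RPKM of 12 skeletal muscle markers was 1296 and 484 in vehicle libraries 1 and 2 and 348 and 2033 in pirfenidone libraries 1 and 2, and between 5.98 and 14.6 in the other 5. Of 12 oesophageal and squamous markers 6 were in the table, and their sum was 746 in pirfenidone library 2 and at most 6.40 in each of the others. The part of these libraries in the results was not tested, and leave-one-out values are given where they change a call. Of the 13 alternatives, 1 left out vehicle library 1 and pirfenidone library 3 together. It is called below the fit chosen after seeing the data. Below, "vehicle libraries" are those of TGFα mice on vehicle and "pirfenidone libraries" those of TGFα mice on pirfenidone. Values are the deposited RPKM of libraries 1, 2 and 3 in that order, means are given ± SD (n = 3), log2 differences are those of limma on log2(RPKM + 1), and adjusted p values are from limma over the 13849 genes.

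**Figure D1:**
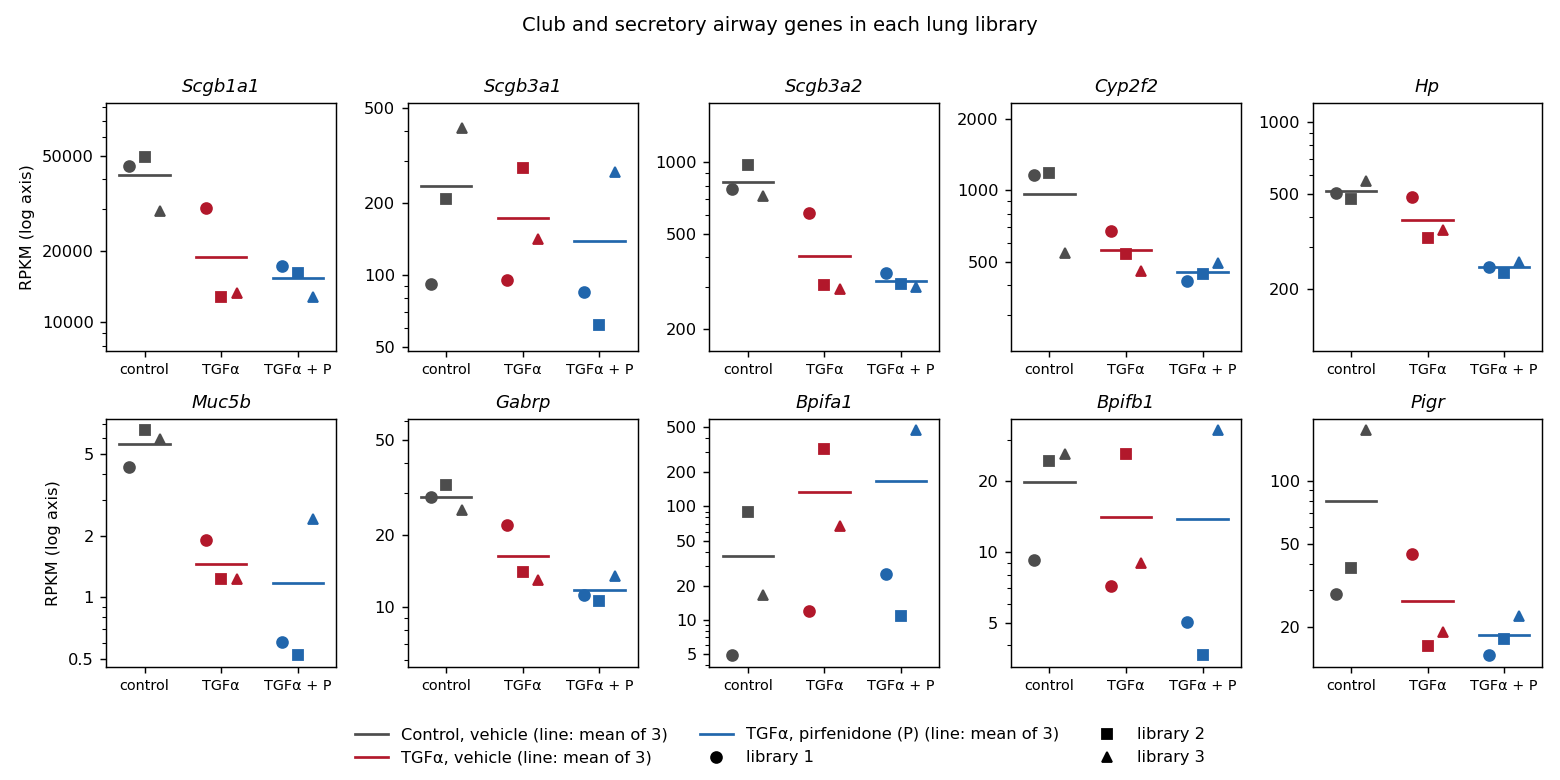
RPKM (log axis) of each of the 10 genes in the 9 lung libraries, with 1 panel per gene, points for libraries and lines for the mean of 3. Scgb3a2, Muc5b and Gabrp show no overlap between control and vehicle libraries, while Bpifa1 spans 18.4- to 43.9-fold within each group.

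Scgb1a1, the most abundant secreted protein of club cells, stood at 45312, 49417 and 29262 RPKM in control libraries, at 30162, 12794 and 13227 in vehicle libraries and at 17256, 16141 and 12786 in pirfenidone libraries. It was the first-ranked gene by RPKM in every library but vehicle libraries 2 and 3 and pirfenidone library 3, where it was second. It made up 2.12%, 2.31% and 1.37% of reads in control libraries, 1.41%, 0.599% and 0.619% in vehicle libraries and 0.808%, 0.755% and 0.598% in pirfenidone libraries. Vehicle library 1 lay above control library 3, so the groups overlapped. The means were 41331 ± 10651 in control and 18727 ± 9905 in vehicle libraries, a ratio of 2.21 with a log2 difference of -1.23 (SE 0.47, 95% interval -2.29 to -0.16, adjusted p = 0.0892), and the difference did not pass. Without vehicle library 1 it was -1.63 and passed (adjusted p = 0.0160), and without control library 3 it was -1.46 and did not (adjusted p = 0.0561). With all 9 libraries but no mean-variance trend in limma, the difference also passed (adjusted p = 0.0336). Over the 13 alternatives the adjusted p of Scgb1a1 ran from 0.0152 to 0.412, the lowest from the fit chosen after seeing the data.

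Scgb3a2, a secretoglobin of club cells in small airways, was at 773, 977 and 724 RPKM in control, 613, 307 and 295 in vehicle and 345, 310 and 301 in pirfenidone libraries. All control libraries lay above all others. It fell in vehicle libraries from 825 ± 134 to 405 ± 180, 2.03-fold (log2 difference -1.10, SE 0.26, adjusted p = 0.02). The fall did not pass with either control library 1 or 2 left out, nor with either vehicle library 2 or 3 left out (adjusted p = 0.0538, 0.0736, 0.0797 and 0.0799, with 0.00125 the lowest over 13 alternatives). That lowest value came from the fit chosen after seeing the data, and the next was 0.00167. Scgb1a1 was 58.6, 50.6 and 40.4 times Scgb3a2 in control libraries, 49.2, 41.6 and 44.8 times in vehicle libraries and 50.1, 52.1 and 42.5 times in pirfenidone libraries. The ratio of these secretoglobins moved little, with no group standing apart, while both levels were lower in most TGFα libraries.

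Cyp2f2, a cytochrome P450 of club cells that activates naphthalene, was at 1156, 1184 and 544 RPKM in control, 677, 544 and 460 in vehicle and 417, 445 and 496 in pirfenidone libraries. Control library 3 equalled vehicle library 2 at this rounding, and the other control libraries were above every TGFα library. The difference between 961 ± 361 in control and 560 ± 109 in vehicle libraries did not pass (log2 difference -0.71, SE 0.29, adjusted p = 0.107). Without control library 3 the difference was -1.08 and passed (adjusted p = 0.00501), and over the 13 alternatives the adjusted p reached 0.296.

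Gabrp, the pi subunit of the GABA-A receptor, was at 29.0, 32.5 and 25.6 RPKM in control, 22.0, 14.0 and 13 in vehicle and 11.3, 10.7 and 13.6 in pirfenidone libraries. The control range did not overlap either other range. It fell 1.77-fold in vehicle libraries, from 29.0 ± 3.44 to 16.4 ± 4.95 (log2 difference -0.82, SE 0.19, adjusted p = 0.0167). Leaving out either of the first 2 control libraries, or either of the last 2 vehicle libraries, ended the call (adjusted p = 0.0532, 0.0635, 0.0693 and 0.0670, with 0.00132 the lowest over 13 alternatives). The fit chosen after seeing the data gave that lowest value, and the next was 0.00236.

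Muc5b, the gel-forming mucin of the lower airways, was at 4.34, 6.53 and 5.92 RPKM in control, 1.90, 1.22 and 1.22 in vehicle and 0.602, 0.521 and 2.41 in pirfenidone libraries. Control libraries were higher than all 6 others, and pirfenidone library 3 was the only TGFα library above 2 RPKM. It fell 3.86-fold in vehicle libraries, from 5.60 ± 1.13 to 1.45 ± 0.394, with the widest ratio of means among the 3 genes that passed (log2 difference -1.43, SE 0.30, adjusted p = 0.0124). The call was lost without vehicle library 2 or vehicle library 3 (adjusted p = 0.0519 and 0.0524, with 0.00127 the lowest over 13 alternatives). Again the lowest came from the fit chosen after seeing the data, and the next was 0.00559.

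Hp (haptoglobin, which binds free haemoglobin) was at 504, 476 and 566 RPKM in control, 487, 326 and 353 in vehicle and 247, 234 and 260 in pirfenidone libraries. Vehicle library 1 lay within the control range and every pirfenidone library lay below every other library. The control to vehicle difference, from 515 ± 45.8 to 389 ± 86.3, did not pass (log2 difference -0.42, SE 0.15, adjusted p = 0.0756) and passed without vehicle library 1 at -0.60 (adjusted p = 0.00738, range over 13 alternatives 0.00621 to 0.243). The low end of that range came from the fit chosen after seeing the data. Pigr, the polymeric immunoglobulin receptor, was at 28.7, 38.1 and 174 RPKM in control, 44.5, 16.3 and 18.9 in vehicle and 14.6, 17.5 and 22.5 in pirfenidone libraries. Control library 3 was several times above every other library. Its control to vehicle difference did not pass (log2 difference -1.23, SE 0.63, adjusted p = 0.185) and was -0.45 without control library 3 (adjusted p = 0.425, range over 13 alternatives 0.1 to 0.426).

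Of the 10 genes, 3 fell between control and vehicle libraries (Scgb3a2, Muc5b and Gabrp) and 0 rose, where 11.2% of all tested genes fell and 23.3% changed either way. These 3 were also the genes whose groups did not overlap, all lower, where 18.8% of all tested genes were so. The fitted log2 difference was negative for 9 genes, with a median of -0.77 against 0.04 for all tested genes. Unadjusted p was under 0.05 for 6 of the 10 genes, and for 38.4% of all tested genes. Leaving out 1 library gave between 0 and 5 passing genes.

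**Figure D2:**
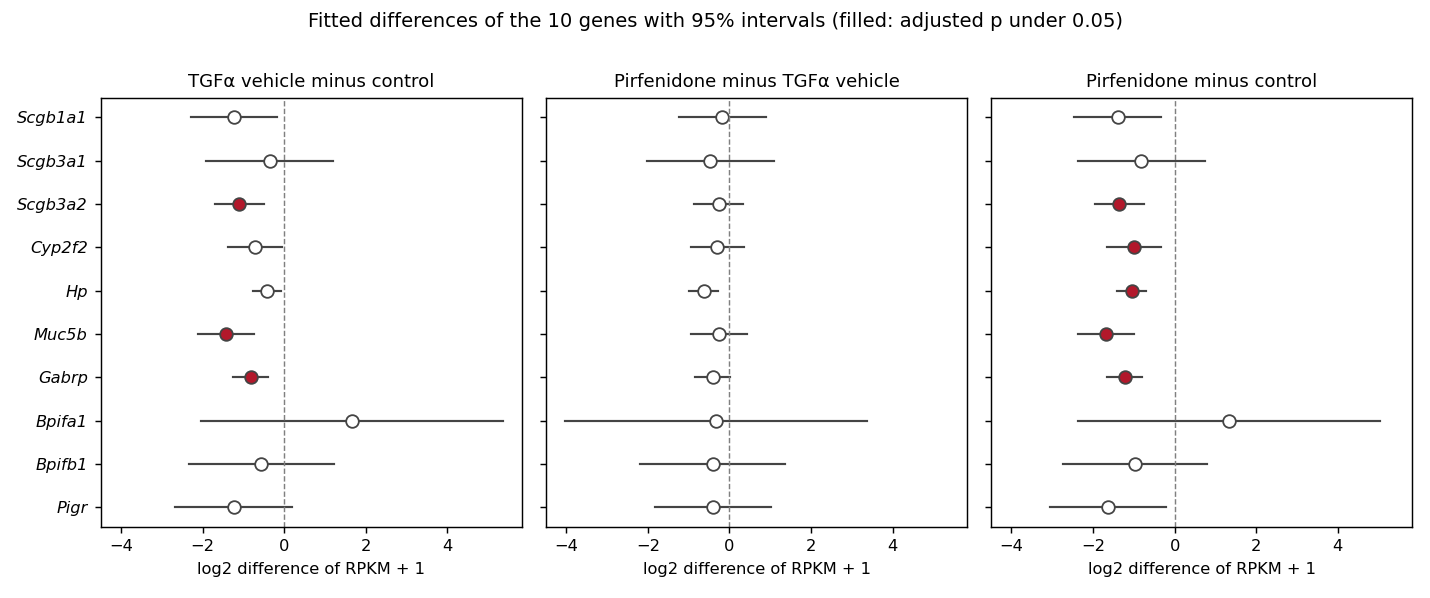
Fitted log2 difference of RPKM + 1 for the 10 genes in each comparison, with points for the estimate, bars for the 95% interval and filled points for adjusted p under 0.05. Intervals of Bpifa1 run from -2.04 to 5.36 between vehicle and control, and those of Scgb1a1, Scgb3a2, Cyp2f2, Hp, Muc5b and Gabrp lie below 0 there, while between pirfenidone and vehicle the interval of Hp alone does.

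Scgb3a1, a secretoglobin of larger airways, Bpifb1 and Bpifa1, antimicrobial BPI-fold proteins of the upper airway and its glands, varied more within groups. Scgb3a1 was at 91.7, 207 and 410 RPKM in control, 94.7, 281 and 141 in vehicle and 85.1, 61.3 and 268 in pirfenidone libraries. Bpifb1 was at 9.24, 24.5 and 26.0 RPKM in control, 7.15, 26.1 and 8.97 in vehicle and 5.01, 3.62 and 32.9 in pirfenidone libraries. Bpifa1 was at 4.85, 89.4 and 16.4 RPKM in control, 12.1, 323 and 67.2 in vehicle and 25.4, 10.7 and 470 in pirfenidone libraries. Vehicle library 2 and pirfenidone library 3 were high for all 3 genes within their groups, and library 1 was low for all 3 in the control and vehicle groups. No comparison of them passed. Between vehicle and control the log2 difference was -0.35 for Scgb3a1 (SE 0.68, adjusted p = 0.740), -0.56 for Bpifb1 (SE 0.78, adjusted p = 0.635) and 1.66 for Bpifa1 (SE 1.63, adjusted p = 0.488). The sign of Scgb3a1 turned to 0.17 without control library 3. Bpifa1 was 12.4 and 14.3 times Bpifb1 in vehicle library 2 and pirfenidone library 3, and 0.525 and 0.630 times in control libraries 1 and 3, so these chromosome 2 neighbours did not keep a fixed ratio.

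**Figure D3:**
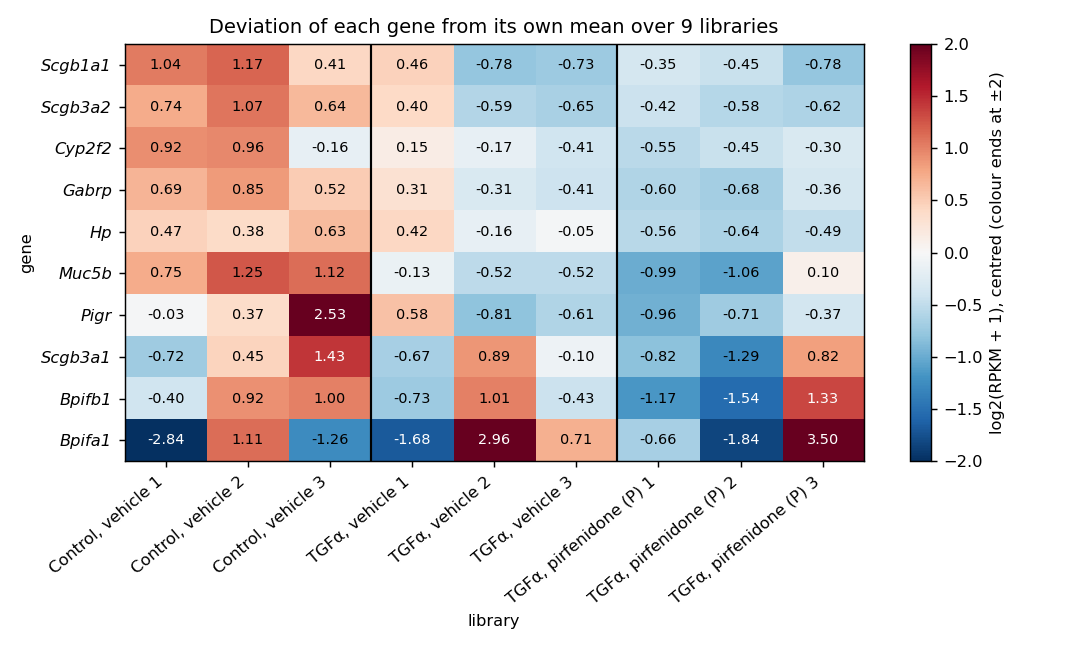
Deviation of log2(RPKM + 1) of each gene from its own mean over the 9 libraries, one column per library and one row per gene, with the colour ending at 2 either way. Scgb3a1, Bpifb1 and Bpifa1 are raised together in vehicle library 2, pirfenidone library 3 and control library 2, whereas Scgb1a1, Scgb3a2, Gabrp and Hp are raised in all control libraries and vehicle library 1, and Cyp2f2 in the same libraries but control library 3.

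The patterns over the 9 libraries, centred on each gene's mean, were closest between Scgb1a1 and Scgb3a2 (root mean square difference 0.17 on the log2 scale), then Scgb3a2 and Gabrp (0.19), Hp and Gabrp (0.23), Cyp2f2 and Gabrp (0.26), Scgb1a1 and Gabrp (0.31), and Scgb3a1 and Bpifb1 (0.35). These are descriptions over 9 libraries that share groups. Among other tested genes, the nearest to Scgb1a1 was Sema3g, a semaphorin (0.16), at 81.1, 74.6 and 54.9 RPKM in control libraries and 20.2 to 41.4 in vehicle libraries. The nearest to Scgb3a2 was Foxj1, the transcription factor of motile ciliated cells (0.15), at 26.1, 31.4 and 28.9 RPKM in control, 18.9, 9.53 and 9.0 in vehicle and 12.3, 11.9 and 12 in pirfenidone libraries. For Cyp2f2 the nearest was Ntn4 (0.14), for Gabrp Ptgs2os2 (0.12), for Muc5b Car4 (0.28) and for Pigr Lgals3 (0.34), the last with its high value in control library 3. Scgb3a1 and Bpifb1 had the same nearest gene, Agr2, a disulfide isomerase of mucus-secreting cells (0.44 and 0.55). Agr2 was low throughout, at 0.115 and 0.398 RPKM in pirfenidone libraries 1 and 2 and at most 3.11 in any library. The nearest to Bpifa1 was Ltf (lactoferrin, 1.27), at 26.7 RPKM in vehicle library 2 and 45.4 in pirfenidone library 3. In the other pirfenidone libraries Ltf was at 2.01 and 1.16. Reg3g, an antimicrobial lectin, was at 27.6 and 36.9 RPKM in those 2 libraries and at 1.36 and 1.56 in pirfenidone libraries 1 and 2. Of 12 markers of serous gland cells 4 were in the table, with summed RPKM of 3.59 to 21.1 in control, 6.03 to 30.5 in vehicle and 6.81 to 50.7 in pirfenidone libraries. In the libraries where this sum was highest most of it was Ltf itself, so the sum adds little to the values of Ltf. The part of gland cells in the levels of Bpifa1, Bpifb1 and Scgb3a1 was not tested.

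Pirfenidone was compared with vehicle in TGFα mice, whose vehicle libraries also serve in the comparison with control. By limma 0 of the 10 genes passed, where 0.700% of all tested genes did, and 1, Hp, had an unadjusted p under 0.05, as did 20.7% of all tested genes. Hp, whose groups did not overlap, was the only one of the 10 that was lower in every pirfenidone library, where 9.13% of all tested genes were so. It had a mean of 389 ± 86.3 in vehicle and 247 ± 13.1 in pirfenidone libraries (log2 difference -0.63, SE 0.15, 95% interval -0.98 to -0.29, adjusted p = 0.0873). Without pirfenidone library 3 its adjusted p was 0.0416, in a range of 0.0262 to 0.316 over 13 alternatives. The low end of that range came from the fit chosen after seeing the data. All 10 fitted log2 differences were negative, with a median of -0.36 against 0.03 for all tested genes, although the mean RPKM of Bpifa1 was higher with pirfenidone (169 against 134). In the same comparison the median was -0.66 over 14 pan-epithelial markers, -0.51 over 15 alveolar type 2 markers and -0.31 over 15 alveolar type 1 markers. The 95% interval was -1.24 to 0.89 for Scgb1a1 and -0.86 to 0.34 for Scgb3a2. Without vehicle library 1 the signs of Scgb1a1 and Scgb3a2 turned to 0.23 and 0.08. Muc5b stood at 1.45 ± 0.394 in vehicle and 1.18 ± 1.07 RPKM in pirfenidone libraries (log2 difference -0.26, adjusted p = 0.655), with libraries 1 and 2 of the pirfenidone group below every vehicle library and library 3 above every one.

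Against control, pirfenidone libraries were lower for 5 of the 10 genes and higher for 0, where 7.74% of all tested genes were lower. The 5 were Scgb3a2 (319 ± 23.1 RPKM, log2 difference -1.36, SE 0.26, adjusted p = 0.0110), Hp (-1.06, SE 0.15, adjusted p = 0.00361), Muc5b (-1.69, SE 0.30, adjusted p = 0.00816), Gabrp (-1.23, SE 0.19, adjusted p = 0.00450) and Cyp2f2 (-1.0, SE 0.29, adjusted p = 0.0438). The first 4 kept their call in all 13 alternatives, with highest adjusted p of 0.0456, 0.0215, 0.0360 and 0.0241. Cyp2f2 lost it in 8 of 13, among them without control library 1 or 2 (adjusted p = 0.143 each) and without pirfenidone library 1 or 2 (0.117 each). Scgb1a1 did not overlap between the groups but did not pass (-1.40, SE 0.47, adjusted p = 0.0691). It passed without control library 3 (-1.63, adjusted p = 0.0435) and in limma without the mean-variance trend (adjusted p = 0.0254), in a range of 0.0254 to 0.371 over 13 alternatives. In all, 7 of the 10 genes did not overlap between the groups and were lower, where 14.8% of all tested genes were so. The median log2 difference of the 10 genes was -1.14 against 0.05 for all tested genes.

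Other genes of the same cells were taken from lists. Of 26 tested genes of club cells beyond the 10, 7 fell between control and vehicle libraries, 0 rose and 19 did not pass. Over all tested genes 11.2% fell. Sec14l3, 1 of the 7, is also counted among the alveolar type 1 markers that fell. Cyp4b1 (a club cell P450) was at 274, 277 and 157 RPKM in control and 96.3, 62.0 and 65.2 in vehicle libraries (adjusted p = 0.00383). Iyd, an iodotyrosine deiodinase, was at 5.72, 4.45 and 3.11 RPKM in control and 1.46, 1.59 and 0.963 in vehicle libraries (adjusted p = 0.00777). Aldh1a7, of the same list, was not lower (log2 difference 0.27, adjusted p = 0.487). Cbr2, also of the list, did not pass (log2 difference -0.22, adjusted p = 0.512). The median log2 difference of the 26 genes was -0.38. Between control and pirfenidone libraries 5 of them fell, where 7.74% of all tested genes did. Among 19 tested genes of ciliated cells, which share the airway lining with club cells, 14 fell in vehicle libraries and 16 in pirfenidone libraries against control. The shares of all tested genes that fell were 11.2% and 7.74%. Tppp3, a microtubule-binding protein, was at 255, 314 and 225 RPKM in control and 120, 86.9 and 80.4 in vehicle libraries (adjusted p = 0.00173). Their summed RPKM was 543 to 668 in control, 267 to 388 in vehicle and 283 to 314 in pirfenidone libraries. The share of ciliated cells in the lungs, against RNA per cell, cannot be told apart from these sums.

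**Figure D4:**
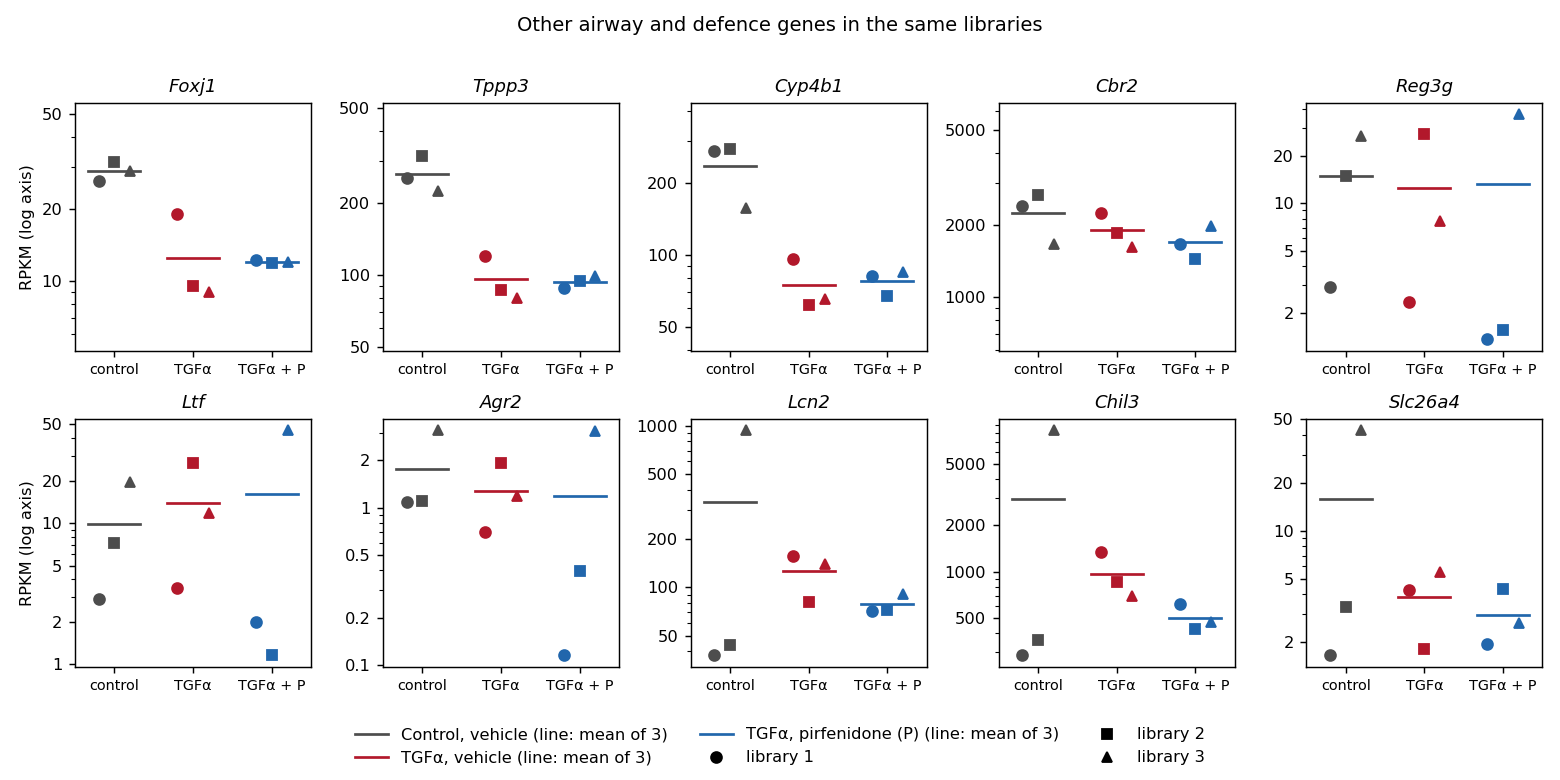
RPKM (log axis) of 10 further airway and defence genes in the 9 libraries, points for libraries and lines for the mean of 3. Foxj1, Tppp3 and Cyp4b1 are lower in both TGFα groups, while Cbr2 overlaps between all groups. Reg3g, Ltf and Agr2 are the highest of their groups in vehicle library 2 and pirfenidone library 3. Lcn2, Chil3 and Slc26a4 are highest in control library 3.

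In 11 tested goblet and mucus genes, 1 rose in vehicle libraries (Muc1, a membrane mucin shared with alveolar type 2 cells, adjusted p = 0.0266) and 1 fell (Agr3, adjusted p = 0.0418). Muc5ac, the goblet cell mucin of inflamed airways, was at most 0.535 RPKM in every library, the highest in control library 3. Among 22 regulators of airway cells, 3 rose in vehicle libraries and 4 fell. For the lists in this paragraph, the background is that 1665 of all 13849 tested genes rose and 1557 fell. That is 23.3% either way, with 11.2% falling. Whether the count of any list differed from these shares was not tested. Notch1, a Notch receptor, was at 34.2, 30.4 and 25.0 RPKM in control and 17.1, 12.2 and 12.8 in vehicle libraries (adjusted p = 0.00300). The other Notch receptors of the list, Notch2 (16.0 ± 0.578 and 15.3 ± 0.874 RPKM, adjusted p = 0.527) and Notch3 (adjusted p = 0.239), did not pass. Cebpa, a C/EBP factor, was at 20.5, 21.6 and 24.6 RPKM in control and 29.8, 37.8 and 34.6 in vehicle libraries (adjusted p = 0.0127). Of 22 secreted defence and acute-phase genes, 3 fell, and C3, the central complement component, went from 394 ± 185 to 109 ± 23.1 RPKM (adjusted p = 0.00760). Among 10 tested genes linked to the making of IgA, its transport or their regulation, 2 fell, Tnfsf13b (a B cell survival factor, adjusted p = 0.00173) and Il17ra, a cytokine receptor. Of 3 tested genes that handle GABA or chloride, Slc12a2, which takes chloride into cells, rose from 23.3 ± 0.676 to 72.8 ± 17.4 RPKM (adjusted p = 0.00406), Abat rose and Gabbr1 fell. Of 5 tested relatives of the secretoglobins and BPI-fold genes, Bpifa2 and Pltp fell and Bpifb5 rose. Over all 18 lists, 178 distinct genes were tested, and pirfenidone against vehicle changed 0 of them by limma. Of the 178, 41 had an unadjusted p under 0.05 by limma, as did 20.7% of all tested genes.

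Markers of other cell types were read in the same libraries. Of 15 alveolar type 2 markers 6 rose and 2 fell in vehicle libraries, and of 15 alveolar type 1 markers 8 fell and 0 rose. Over all 13849 tested genes 1665 rose and 1557 fell, the latter 11.2%. The median log2 difference was 0.53 over the type 2 list and -0.64 over the type 1 list, so these epithelial lists moved in opposite directions. The counts were not tested against the shares of all tested genes. Markers of basal cells, summed, were 1.63 to 5.09 RPKM in control, 1.91 to 3.89 in vehicle and 2.83 to 49.3 in pirfenidone libraries, the last from pirfenidone library 2. Airway cartilage markers, found around large airways, summed to 12.6 to 24.2 RPKM in control, 4.48 to 9.29 in vehicle and 8.32 to 9.54 in pirfenidone libraries, with 7 of 14 in the table. Of these, Cytl1 made up most, at 15.8, 22.8 and 11.1 RPKM in control and 7.05, 2.77 and 3.54 in vehicle libraries. Cartilage sums were lower in both TGFα groups, as were the club and ciliated genes that passed, and how much large airway each lung sample held was not tested. Of 5 tested neuroendocrine markers 1 rose in vehicle libraries, Calca, which encodes calcitonin and its related peptide and is also the only tested gene of the thyroid list. Calca was at 0.466, 2.03 and 0.819 RPKM in control, 5.85, 9.82 and 8.27 in vehicle and 12.4, 13.7 and 12.7 in pirfenidone libraries (vehicle against control, adjusted p = 0.00198). Pan-epithelial markers summed to 620 to 653 in control, 590 to 817 in vehicle and 356 to 700 in pirfenidone libraries, with libraries 1 and 2 lowest in the last group.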

How the data were processed

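RNA of 9 total lung samples was sequenced, and the authors deposited 1 table of RPKM values (reads per kilobase of gene, scaled to library reads). The header gives no unit. RPKM was inferred, since dividing by 1 step per gene and library returned whole reads for 16163 of 16165 genes at a tolerance of 0.0001 reads. Build mm10 and the tools CASAVA 1.8, bcl2fastq, DESeq and TopHat appear in the submitters' processing notes, with no role stated. Annotation and counting method: not given in the sources used here. RNA came from a column kit and libraries from standard Illumina protocols, per the labels' protocols. A floor of 3 reads was 0.159 to 0.263 RPM (reads scaled to the library, without gene length), covering counting error only.

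Genes above 1 RPKM in at least 3 libraries were tested on log2(RPKM + 1), which understates changes of low genes, with limma-trend 3.58.1 in R 4.3.3. The model had group as its only term over 9 libraries (two-sided, Benjamini-Hochberg over the 13849 genes of each comparison, threshold 0.05). Ratios are of mean RPKM. The comparisons with control, and both comparisons with vehicle libraries, share libraries. The labels describe 3 mice per group. The p values weigh a difference of group means against the spread between mice, pooled over the 3 groups and moderated by limma. Replicate numbers were not taken to pair the mice. Alternatives were other pseudocounts, scalings and filters, a fit without the mean-variance trend, a 2-group fit, a replicate block and single libraries left out. A further alternative left out vehicle library 1 and pirfenidone library 3 together and was chosen after seeing the data. The rule for list genes takes the 2 smallest p per list in each of the first 2 comparisons, and the text describes part of them. Nearest genes are the 3 with the smallest root mean square difference. Lcn2, Chil3, Muc5ac, Gabbr1, Slc26a4, Cbr2, Notch2 and Notch3 stand outside both rules and were chosen after their values were seen. The script was tested on simulated data. The 10 genes and all lists were chosen with earlier results of these data known. Python 3.11.15 was used for the rest. Promoters are RefSeq's.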

Additional observations from a re-analysis of the deposited data

How the results depend on the processing

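With 3 mice per group, 1 library decides several calls, and depth limits only genes near the floor. Of the fitted differences of the 10 genes under alternatives, 345 kept direction and side of the threshold. Of the rest, 18 lost and 12 gained the call, and 15 turned sign. These counts include the fit chosen after seeing the data. The cause of the changes was not tested. Between vehicle and control, 3222 of 13849 genes passed, 1665 higher and 1557 lower (1471 and 1755 with median-of-ratios scaling). Leaving out 1 library gave 1317 to 3769, and 0 to 5 of the 10 genes in place of 3. Between pirfenidone and vehicle, 97 passed, 63 with no filter, 11 with only the 2 groups, 21 with the replicate block and 10 to 2124 with 1 library left out, the highest without pirfenidone library 3 (0 to 1 of the 10 genes). Between pirfenidone and control, 2545 passed, 1473 higher and 1072 lower (1156 and 1356 with median-of-ratios scaling), 1121 to 3069 with 1 library left out, and 4 to 6 of the 10 genes. Without vehicle library 1 and pirfenidone library 3 together, a choice made after seeing the data, 4960 genes passed between vehicle and control with 5 of the 10, 3602 between pirfenidone and control, and 3032 between pirfenidone and vehicle with 1 of the 10.

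Signs turned with libraries left out, given here as the lowest and highest log2 differences when 1 library, or both named libraries, were left out. Between vehicle and control, Scgb3a1 ran from -0.90 to 0.17, above 0 without control library 3 or vehicle library 1. Between pirfenidone and vehicle, Scgb1a1 ran from -0.39 to 0.36, Scgb3a2 from -0.45 to 0.12 and Pigr from -0.67 to 0.031, each above 0 without vehicle library 1. Bpifa1 ran from -3.08 to 0.82 and Bpifb1 from -1.64 to 0.13, both above 0 without pirfenidone library 2 or vehicle library 2, and Bpifa1 also without pirfenidone library 1. Between pirfenidone and control, Bpifa1 ran from -0.25 to 2.41, below 0 without pirfenidone library 3.

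The labels number mice 1 to 3 in each group. Deviations from the group means correlated at 0.407, -0.136 and 0.458 between same-numbered vehicle and pirfenidone libraries 1, 2 and 3. Not every library correlated best with its own number, so the numbers were not taken to pair mice. With the replicate block, 3 of the 10 genes passed between vehicle and control, 0 between pirfenidone and vehicle and 5 between pirfenidone and control, and no other call of the 10 genes changed.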
